A study of Mus musculus with 10 samples.

Results

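The measurements described here are the transcript levels of autosomal genes in 12-month mouse hearts, compared between 2 libraries labelled Prdm16 knockout and 2 labelled control. Genes were taken from the deposited 12-month table if they lay on an autosome, averaged at least 1 FPKM over the 4 libraries and had a longest annotated transcript of at least 200 bases. FPKM is the number of sequenced fragments scaled to transcript length and to the mapped fragments of the library. Of the 46977 genes listed there, 13179 reached the level, and 12527 of these met the whole rule, 11267 of them protein coding. The rule left out 438 genes of the X, the Y and the mitochondrial genome, 43 with no annotated position and 171 that were shorter. The lowest gene kept was Jrk at a mean of 1.0003 FPKM, and the highest left out was Itga2b at 0.9987 FPKM. The shortest length kept was 201 bases and the longest left out 198.

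The series holds 10 libraries of dissected hearts, 3 control and 3 knockout at 3 months and 2 and 2 at 12 months, and its title names an age-dependent failure of the heart. The 12-month control and knockout mice differ in the label for Prdm16 genotype. The labels do not state the strain, the sex, the allele, any Cre driver or the exact genotype of the controls. The labels do not say that each library came from its own animal, so the p-values speak only to the spread among these libraries. Prdm16 encodes a zinc-finger transcriptional regulator with a histone methyltransferase-like domain, best known for holding brown fat cells in their identity, and it also acts in the developing myocardium. A failing ventricle typically turns on a set of fetal and mechanical stress genes, changes its ion channels and fuel enzymes, and often gathers matrix. The lists below follow those themes. They were written with earlier results of these data known, so their counts beside those of all genes are descriptions and not tests.

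The 4 libraries held 21.6 to 31.2 M reads by the steps of their low values, and summed FPKM was 890181 and 897425 in the controls and 1070016 and 1171104 in the knockouts. The controls lay close together, with a robust SD of their log2 ratio of 0.112 and 0.4% of genes at least 2-fold apart, while the knockouts lay 0.417 apart, with 5.36%. Between a control and a knockout the robust SD ran from 0.269 to 0.440. Sex-linked genes outside the rule also separated the labels: Xist, the RNA of the inactive X, was at 33.1 and 31.0 FPKM in control hearts and 0.0911 and 0.0240 FPKM in knockout hearts, and the Y-linked Ddx3y at 0.0352 and 0.0114 against 24.5 and 20.7 FPKM. The genotype label and sex-linked expression cannot be told apart in any 12-month difference. At 3 months they do not coincide, since all 6 libraries, control and knockout, had Xist at 0.490 FPKM or less and Ddx3y at 16.5 FPKM or more. Markers of cardiomyocytes were abundant in every library, with Myl2, the ventricular regulatory light chain, at 24005 and 23974 against 26368 and 31941 FPKM, as the heart label requires.

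Prdm16 itself (chromosome 4, 154316125 to 154636873, minus strand, GRCm38) was measured at 6.31 and 5.05 FPKM in control hearts and 4.02 and 3.58 FPKM in knockout hearts. Both knockouts lay under both controls, and transcripts of the gene were present in all 4 libraries. The difference on the log2(FPKM + 1) scale, used for every log2 difference here, was −0.47 (SE 0.15; limma adjusted p = 0.340, Benjamini-Hochberg). An exact permutation test (two-sided) gave p = 0.333, and no split of 2 against 2 can give less. The labels do not state the allele, and whether reads from exons left in place count toward this level was not tested. The level is thus a weak test of the labels.

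Of the 12527 genes 30 passed the test (limma over all 13179 genes, Benjamini-Hochberg adjusted p under 0.05), which is 0.239% of them. Over all 13179 genes 52 passed, among them 7 on the sex chromosomes and 15 autosomal genes shorter than 200 bases, and these enter the adjustment. With the reported genes fitted alone 9 were called, all among the 30. Of the 30 genes 15 rose in the knockouts and 15 fell, 0.12% each, and 28 code for proteins. The filter on the mean of all 4 libraries also lets in genes that are high in a single group. Kcnj14 and 7530428D23Rik passed it through the knockouts only, and Ucp1 and Plin1 through the controls only. Uncalled genes such as Nr4a3, Ifi205, Ccl11, Serpina3n and Igha also passed it through the knockouts only. That such genes are counted at all rests on the group where they are high. Groups without overlap were far more common: 3453 genes (27.6%) were higher in both knockouts than in both controls and 2899 (23.1%) lower, in all 6352 (50.7%). All 30 calls were lost when either control was left out: without control replicate 1 or control replicate 2 the test called 0 genes, with 353 and 358 at an unadjusted p under 0.05, while without knockout replicate 1 it called 4028 and without knockout replicate 2 it called 537, all 30 among them each time. Such a fit takes its spread from the pair of libraries that is left, the wide knockouts or the narrow controls, and assumes that the lone library varies alike. No log2 difference of the 30 changed sign or moved by more than 0.36 when 1 library was left out. Of 11 alternatives in processing that kept all 4 libraries, Scd1, Car3, Eln and Depp1 passed in 11, Hba-a2 and C7 in 10, Kcne1 in 9, Ankrd1 in 6, and Nampt and Cebpd in 3, which was the fewest. After scaling to TPM, which fixes the sum of each library, the median of all genes moved from 0.01 to −0.27 and the calls were 8 higher and 18 lower. The medians of the 45 gene lists moved down by 0.16 to 0.33 with it, so that a list median near 0 as deposited is negative on that scale. In 14 lists the medians of the 2 knockouts had opposite signs.

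**Figure D1:**
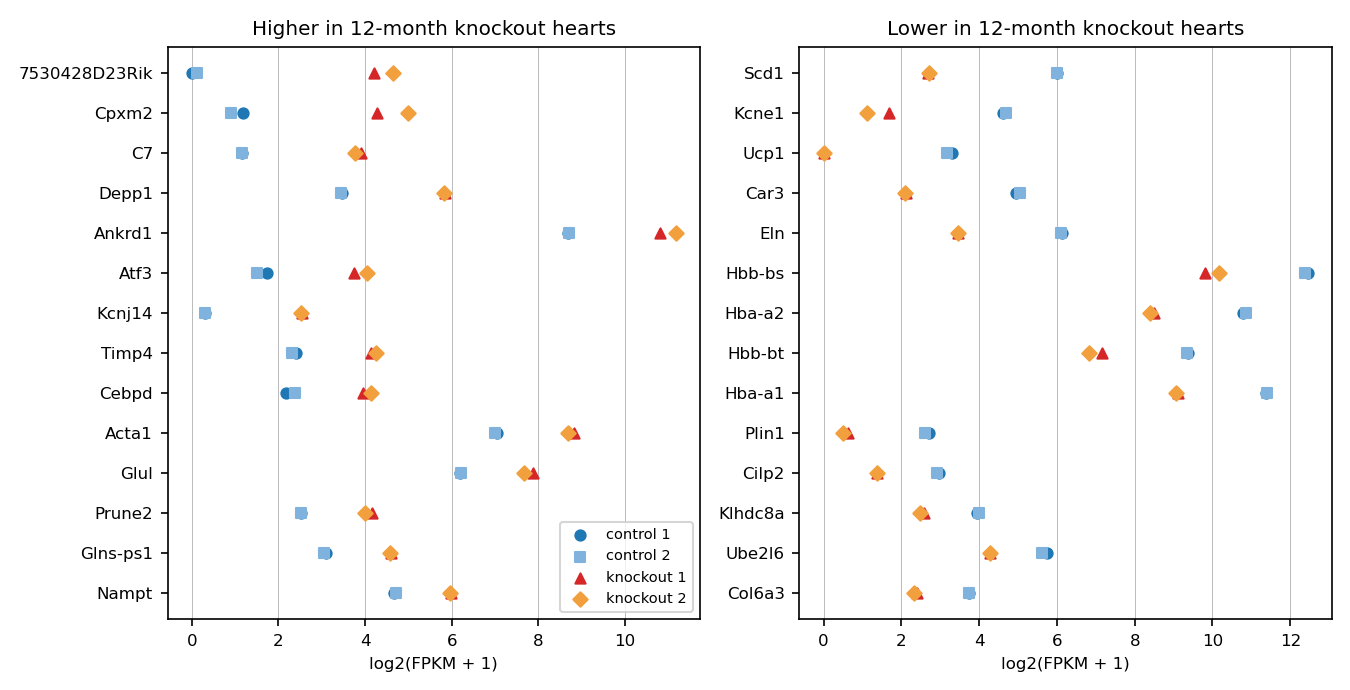
Levels of 28 of the 30 called genes in each 12-month library, as log2(FPKM + 1) on the horizontal axis, with 14 genes that rose on the left and 14 that fell on the right. Blue circles and squares are the 2 controls and red triangles and orange diamonds the 2 knockouts. The groups do not overlap in any of the 28, and the 2 symbols of a group mostly lie close together, less so in the knockouts of Cpxm2 and Kcne1. The test favours such genes, so both traits follow from the choice of called genes.

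Ankrd1 and Acta1, long used as markers of a stressed ventricle, rose. Ankrd1, a muscle ankyrin repeat protein that links the sarcomere to the nucleus under mechanical load, stood at 409.8 and 419 FPKM in control hearts and 1787 and 2313 FPKM in knockout hearts. Acta1, the skeletal alpha-actin that is re-expressed in the loaded ventricle, stood at 131 and 127 FPKM in control hearts and 455 and 410.0 FPKM in knockout hearts. In both genes the knockouts lay far above the controls and the controls lay close together, which the test favours. The difference was 2.29 (SE 0.17; limma adjusted p = 0.0449, Benjamini-Hochberg) for Ankrd1 (chromosome 19, 36111961 to 36120099, minus strand) and 1.73 (SE 0.12; limma adjusted p = 0.0356, Benjamini-Hochberg) for Acta1 (chromosome 8, 123891769 to 123894751, minus strand). Reads of Acta1 can be shared with the near-identical cardiac actin Actc1, so its level is uncertain to that extent.

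The promoters of both genes are shown because they hold the MCAT element, the hexamer CATTCC bound by TEAD factors, in the 250 bases before or 50 bases after the RefSeq start (GRCm38.p6, written 5′ to 3′ along the gene, the element or its reverse complement in capitals).
Acta1, chr8:123894726-123895025, minus strand: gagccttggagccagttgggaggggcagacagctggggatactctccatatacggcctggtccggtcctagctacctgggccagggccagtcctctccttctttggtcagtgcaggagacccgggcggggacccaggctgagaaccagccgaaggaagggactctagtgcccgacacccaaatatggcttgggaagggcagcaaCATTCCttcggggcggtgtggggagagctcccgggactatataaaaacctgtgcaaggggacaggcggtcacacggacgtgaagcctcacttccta
Ankrd1, chr19:36119795-36120094, minus strand: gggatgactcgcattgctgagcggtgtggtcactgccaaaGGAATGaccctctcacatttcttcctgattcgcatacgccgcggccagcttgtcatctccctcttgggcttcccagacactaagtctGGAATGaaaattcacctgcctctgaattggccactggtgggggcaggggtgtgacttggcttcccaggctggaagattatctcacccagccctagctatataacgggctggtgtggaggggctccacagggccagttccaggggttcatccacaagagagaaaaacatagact
In Acta1 the element begins 46 bases before the start on the strand of the gene, and in Ankrd1 it stands on the opposite strand 210 and 123 bases before it. A search of both strands found it in 3 of 11 promoters of called rises that had an entry (27.3%; the other is that of Cpxm2), in 0 of 10 of the called falls and in 14.6% of the promoters of 9131 genes. Such a match describes letters only and is no evidence of binding. Exact matches to the AP-1 site TGANTCA, the cAMP response element TGACGTCA and the E-box CACGTG were in none of the 11 promoters of rises. Of the 9131 genes 6.0%, 3.6% and 11.8% held them. Near matches were not searched, and 11 promoters are too few to set against such shares.

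The wider list of fetal and stress genes had 16 of 18 measured members higher in the knockouts and 2 lower, with a median difference of 0.32, against 6478 of 12527 and 0.01 over all genes; after TPM scaling the median of the list was −0.00. Acta1 and Ankrd1 passed the test, and 13 of 18 members were higher without overlap, against 27.6% of all genes. Nppa, the precursor of atrial natriuretic peptide and the most abundant member, stood at 3313 and 3234 FPKM in control hearts and 15104 and 11263 FPKM in knockout hearts. The groups were well apart, but the difference of 1.99 (SE 0.19; limma adjusted p = 0.0759, Benjamini-Hochberg) missed the threshold. Myh7, the slow myosin heavy chain, stood at 11.9 and 11.7 FPKM in control hearts and 43.3 and 147 FPKM in knockout hearts, with knockout replicate 2 far the higher (log2 difference 2.66, SE 0.62; limma adjusted p = 0.252, Benjamini-Hochberg). The actin-binding Xirp2 of the intercalated disc stood at 25.8 and 26.6 against 53.7 and 42.99 FPKM.

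Among sarcomere and Z-disc genes 15 of 21 were higher and 6 lower, with none past the test and a median of 0.25 that became −0.07 after TPM scaling. The thin filament leiomodin Lmod2 stood at 205 and 214 against 375 and 431 FPKM and the titin cap Tcap at 864 and 860.3 against 2229.6 and 1701 FPKM, both without overlap. Myot, the Z-disc protein myotilin, was among the 15 largest upward differences that missed the test (ranked over uncalled genes without overlap whose higher group averaged at least 5 FPKM), at 3.86 and 3.75 FPKM in control hearts and 17.1 and 64.9 FPKM in knockout hearts. The difference was 2.84 (SE 0.66), with knockout replicate 2 the higher. Of 14 cardiomyocyte markers 8 were higher, with a median of 0.02 (−0.31 after TPM scaling) and none called. The small chaperone Hspb7 had the lowest p of them, at 567 and 568 against 1138 and 1348 FPKM, and titin (Ttn) was lower, at 47.2 and 50.2 against 35.7 and 28.4 FPKM. Of genes for muscle atrophy and autophagy 15 of 20 were higher and 5 lower (median 0.33, 0.03 after TPM scaling, none called). The microtubule-associated ring-finger protein Trim54 stood at 46.3 and 48.3 against 155 and 209.7 FPKM (limma, Benjamini-Hochberg adjusted p = 0.0777), the ubiquitin ligase atrogin-1 (Fbxo32) at 15.3 and 16.3 against 30.5 and 35.1 FPKM, while Trim55, of the same family as Trim54, was lower, at 65.5 and 64.8 against 43.9 and 29.97 FPKM.

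Of the ion channel genes Kcne1 fell and Kcnj14 rose. Kcne1, the accessory subunit that slows the Kcnq1 potassium channel, stood at 23.4 and 24.9 FPKM in control hearts and 2.23 and 1.17 FPKM in knockout hearts, a difference of −3.25 (SE 0.23; limma adjusted p = 0.0396, Benjamini-Hochberg). Kcnj14, an inward rectifier subunit of the Kir2 family, stood at 0.234 and 0.236 FPKM in control hearts and 4.87 and 4.71 FPKM in knockout hearts, a difference of 2.23 (SE 0.15; limma adjusted p = 0.0328, Benjamini-Hochberg). Kcnj14 thus went from near 0 to a low but steady level, and Kcne1 from a moderate level to a low one. In the whole potassium channel list 7 of 21 measured members were higher and 14 lower (median −0.20, −0.43 after TPM scaling), and Kcne1 and Kcnj14 were the only members past the test. The voltage-gated channel Kcna5 stood at 3.98 and 3.88 against 8.37 and 8.79 FPKM and Kcnj2, which carries the main inward rectifier current, at 14.6 and 14.3 against 7.62 and 7.95 FPKM. The list differed between the knockouts, with a median of 0.07 in replicate 1 and −0.55 in replicate 2. The sodium channel, gap junction and intercalated disc list had 8 of 18 higher and 10 lower (median −0.18, −0.48 after TPM scaling), none called, with medians of 0.17 in knockout replicate 1 and −0.38 in replicate 2. The connexin Gja1 stood at 241 and 243 against 149 and 129.8 FPKM and Gja5 at 11.8 and 12.05 against 7.47 and 7.62 FPKM. Calcium handling genes had 9 of 22 higher and 13 lower (median −0.17, −0.49 after TPM scaling), with no call, and medians of 0.11 in knockout replicate 1 and −0.29 in replicate 2. Atp2a2, the calcium pump of the sarcoplasmic reticulum, overlapped between the groups, at 3299.6 and 3346 against 3814 and 2839 FPKM, and its regulator phospholamban (Pln) stood at 2775 and 2719 against 3170.3 and 2942 FPKM.

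Elastin and a collagen VI chain fell, and nearly all collagens were lower, while an inhibitor of matrix proteases rose. Elastin (Eln; chromosome 5, 134702593 to 134747323, minus strand), the core of elastic fibres, stood at 69.3 and 68.3 FPKM in control hearts and 9.94 and 9.91 FPKM in knockout hearts. With a difference of −2.68 (SE 0.10; limma adjusted p = 0.00806, Benjamini-Hochberg), elastin had libraries that nearly coincided within each group. Col6a3, a chain of the beaded-filament collagen, stood at 12.4 and 12.4 FPKM in control hearts and 4.29 and 3.997 FPKM in knockout hearts (log2 difference −1.38, SE 0.11; limma adjusted p = 0.0498, Benjamini-Hochberg). Cilp2, a cartilage-type matrix protein, also fell, at 6.82 and 6.57 against 1.58 and 1.58 FPKM (log2 difference −1.58, SE 0.12; limma adjusted p = 0.0498, Benjamini-Hochberg).

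Of the 19 measured collagens 18 were lower in the knockouts and 1 higher, with a median of −1.0, and 16 were lower without overlap, a state shared by 23.1% of all genes. Col6a3 was the only one past the test. Col3a1, a fibrillar collagen and the most abundant of the list, stood at 402 and 392 FPKM in control hearts and 139.9 and 90.5 FPKM in knockout hearts (log2 difference −1.81, SE 0.24; limma adjusted p = 0.130, Benjamini-Hochberg). The basement membrane chain Col4a1 stood at 145 and 148 against 85.2 and 61.9 FPKM, Col15a1 at 104 and 93.2 against 40.4 and 23.4 FPKM and Col5a3 at 10.1 and 10.1 against 2.11 and 4.12 FPKM. In most collagens knockout replicate 2 was the lower of the pair: the median was −0.60 in replicate 1 and −1.31 in replicate 2. Col8a1, a short-chain collagen of vessels, was the member that was higher, at 4.38 and 4.58 against 12.3 and 6.93 FPKM.

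Other genes of the fibroblast and its matrix did not all go the same way. Elastic fibre and matricellular genes had 16 of 32 higher and 16 lower (median −0.02, −0.30 after TPM scaling). Fibronectin (Fn1) stood at 19.7 and 20.99 against 11.3 and 10.97 FPKM and the microfibril gene Mfap2 at 5.53 and 5.56 against 1.72 and 2.102 FPKM, while the matricellular Ccn1, a target of mechanical signalling, stood at 19.98 and 19.2 against 36.6 and 43.3 FPKM. Fibroblast markers had 4 of 12 higher and 8 lower (median −0.07, −0.39 after TPM scaling, none called). Decorin (Dcn), at 465 and 462 against 475 and 661 FPKM, and Gsn, at 853 and 846 against 872 and 812 FPKM, were the most abundant of them, and Pdgfra, a receptor that marks the cell type, stood at 10.9 and 10.2 against 8.15 and 7.81 FPKM. In bulk tissue fewer cells of a type and less RNA per cell cannot be told apart.

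Among matrix proteases and their inhibitors 7 of 18 were higher and 11 lower (median −0.06, −0.38 after TPM scaling). Timp4, the metalloproteinase inhibitor most typical of heart, stood at 4.2998 and 3.98 FPKM in control hearts and 16.6 and 17.9 FPKM in knockout hearts and rose by 1.83 (SE 0.11; limma adjusted p = 0.0303, Benjamini-Hochberg). The gelatinase Mmp2 was lower, at 40.04 and 40.1 against 25.7 and 22.1 FPKM. Cpxm2, a secreted carboxypeptidase-like protein, rose from barely detected to a moderate level, with 1.27 and 0.864 FPKM in control hearts and 18.5 and 30.98 FPKM in knockout hearts (log2 difference 3.60, SE 0.29; limma adjusted p = 0.0498, Benjamini-Hochberg). TGF-beta and BMP signalling genes had 16 of 26 higher and 10 lower (median 0.04; −0.25 after TPM scaling), with none called and medians of 0.11 in knockout replicate 1 and −0.08 in replicate 2. The signal transducer Smad3 stood at 8.47 and 10.2 against 3.87 and 4.63 FPKM. Bmp10, a ligand of atrial myocardium, had the largest downward difference of the genes ranked in that way, at 56.01 and 57.5 FPKM in control hearts and 0.2296 and 25.2 FPKM in knockout hearts, and was nearly absent from knockout replicate 1 only. Spon2, a secreted matrix protein, had the same shape, at 22.997 and 26.6 against 0.766 and 8.44 FPKM.

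Smooth muscle and pericyte markers had 4 of 17 higher and 13 lower (median −0.25), with Eln called, and Acta2, smooth muscle actin, stood at 198 and 198 against 112 and 93.4 FPKM. Epicardial and mesothelial markers had 1 of 11 higher and 10 lower (median −0.59), none called. Mesothelin (Msln) stood at 10.03 and 10.02 against 1.31 and 5.03 FPKM and Upk3b at 9.404 and 8.99 against 1.12 and 5.76 FPKM, both lowest in knockout replicate 1, where the median of the list was −1.22 against −0.27 in replicate 2. The part of these cell types in the matrix differences was not tested.

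A gene of lipid synthesis and 3 of fat cells fell, while genes of fatty acid oxidation were mostly higher without passing the test. Scd1 (chromosome 19, 44394455 to 44407879, minus strand), the desaturase that makes monounsaturated fatty acids, stood at 62.6 and 63.3 FPKM in control hearts and 5.39 and 5.49 FPKM in knockout hearts. The controls were more than 10 times the knockouts, and the difference was −3.31 (SE 0.10; limma adjusted p = 0.00617, Benjamini-Hochberg). Fasn, fatty acid synthase, stood at 35.6 and 30.6 FPKM in control hearts and 9.26 and 7.53 FPKM in knockout hearts and just missed the threshold, with −1.86 (SE 0.16; limma adjusted p = 0.0554, Benjamini-Hochberg). The lipid synthesis list had 10 of 27 higher and 17 lower (median −0.43). Acly, which supplies cytosolic acetyl-CoA, stood at 21.95 and 22.6 against 14.1 and 13.8 FPKM, and the desaturase Fads3 was higher, at 16.9 and 17.03 against 28.02 and 26.9 FPKM.

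The fat cell genes that fell were Car3, Plin1 and Ucp1. Car3, a carbonic anhydrase abundant in fat, stood at 29.8 and 31.98 FPKM in control hearts and 3.37 and 3.295 FPKM in knockout hearts (log2 difference −2.88, SE 0.11; limma adjusted p = 0.00806, Benjamini-Hochberg). Plin1, which coats the lipid droplet of fat cells, stood at 5.55 and 5.06 FPKM in control hearts and 0.547 and 0.423 FPKM in knockout hearts (log2 difference −2.09, SE 0.15; limma adjusted p = 0.0410, Benjamini-Hochberg). Ucp1, the uncoupler by which brown fat makes heat, had 8.80 and 8.01 FPKM in control hearts and a listed value of 0 in both knockout hearts, which can be a true absence or a failed estimate. Adiponectin (Adipoq) stood at 11.02 and 7.46 against 0.566 and 1.52 FPKM and adipsin (Cfd) at 19.8 and 19.3 against 4.09 and 6.15 FPKM, both without overlap and neither past the test. The apolipoprotein gene Apoc1 was also lower, at 6.84 and 6.11 against 0.879 and 1.71 FPKM. Over the list of white and brown adipocyte genes 9 of 19 were higher and 10 lower (median −0.04), with medians of −0.31 in knockout replicate 1 and 0.16 in replicate 2. Without overlap 6 of them were higher and 9 lower, against 27.6% and 23.1% of all genes. Fabp4, which endothelium also expresses, stood at 587 and 586 against 704 and 1358 FPKM, and Cox7a1, which heart muscle expresses, at 3069 and 3010.0 against 2597 and 3387 FPKM. Leptin (Lep), a defining fat cell gene, was at or under 0.187 FPKM in every library. Scd1 and Fasn are abundant in fat as well as in myocardium, and the part of fat cells in their falls was not tested.

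Fatty acid uptake and oxidation genes were higher in 34 of 38 and lower in 4, with a median of 0.42 (0.09 after TPM scaling), and 26 were higher without overlap, against 27.6% of all genes; none passed the test. The median was 0.17 in knockout replicate 1 and 0.69 in replicate 2. Ucp3, a mitochondrial carrier of muscle, stood at 9.47 and 9.44 against 27.1 and 46.1 FPKM, Cpt2, the inner carnitine palmitoyltransferase, at 106 and 108 against 149 and 172 FPKM, and Cpt1a at 12.9 and 13.4 against 18.2 and 20.3 FPKM. The largest upward difference in that ranking was that of Bdh1, which interconverts the ketone bodies, at 2.39 and 2.49 FPKM in control hearts and 40.2 and 112 FPKM in knockout hearts (log2 difference 4.31, SE 0.52; limma adjusted p = 0.110, Benjamini-Hochberg). Pdk4, which shuts off pyruvate dehydrogenase, stood at 60.7 and 63.1 FPKM in control hearts and 188 and 1260.2 FPKM in knockout hearts. Angptl4, an inhibitor of lipoprotein lipase, stood at 2.69 and 3.11 FPKM in control hearts and 6.26 and 68.002 FPKM in knockout hearts. In all 3 genes knockout replicate 2 was the higher.

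Enzymes of branched-chain amino acid and ketone breakdown had 19 of 21 higher and 2 lower (median 0.21, −0.12 after TPM scaling), none called. Mccc1, of leucine breakdown, stood at 27.8 and 24.6 against 63.5 and 76.9 FPKM and the mitochondrial transaminase Bcat2 at 71.5 and 69.1 against 106 and 115 FPKM. Glul, glutamine synthetase (chromosome 1, 153899944 to 153909723, plus strand), rose, with 72.1 and 73.1 FPKM in control hearts and 234 and 202 FPKM in knockout hearts (log2 difference 1.57, SE 0.12; limma adjusted p = 0.0498, Benjamini-Hochberg). Its processed pseudogene Glns-ps1, whose reads cannot be told from those of Glul with certainty, rose too, at 7.53 and 7.32 against 23.1 and 22.8 FPKM. Nampt, the rate-limiting enzyme of NAD salvage, rose with 24.4 and 25.1 FPKM in control hearts and 62.4 and 61.7 FPKM in knockout hearts (log2 difference 1.29, SE 0.10; limma adjusted p = 0.0498, Benjamini-Hochberg). Nampt had the smallest difference of the called rises and close replicates in both groups.

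No nuclear gene of the respiratory chain passed the test. Complex I genes were higher in 33 of 35 and lower in 2, with a median of 0.19 that became −0.13 after TPM scaling, and genes of complexes II to V were higher in 32 of 38 and lower in 6, with a median of 0.10 that became −0.22. Of complexes II to V, 35 stood above both controls in knockout replicate 2 (median 0.27), whereas 12 stood above and 25 below in replicate 1 (median −0.07). In complex I all 35 stood above both controls in knockout replicate 2 and 21 in replicate 1. Over all 12527 genes 5597 stood above both controls in replicate 2, and in replicate 1 5828 stood above and 4732 below. The accessory subunit Ndufa10 stood at 1284 and 1380.2 against 1592 and 1725 FPKM. Of the TCA cycle 15 of 19 were higher and 4 lower (median 0.11, −0.21 after TPM scaling), with the malate dehydrogenase Mdh2 at 1694 and 1679 against 2057 and 2006 FPKM. No member of complexes I to V or of the TCA cycle had an unadjusted p under 0.05. Glycolysis and pyruvate entry genes were 14 of 27 higher and 13 lower (median 0.07, −0.25 after TPM scaling; 0.12 in knockout replicate 1 and −0.09 in replicate 2), with the phosphofructokinase Pfkp at 43.3 and 40.6 against 24.9 and 19.7 FPKM. Mitochondrial dynamics and regulators were 11 of 21 higher and 10 lower (median 0.02, −0.25 after TPM scaling), with the fusion protein Mfn1 at 433 and 404 against 544 and 513 FPKM. Cytosolic ribosomal protein genes were 30 of 34 higher and 4 lower (median 0.22, −0.09 after TPM scaling), but with medians of −0.04 in knockout replicate 1 and 0.51 in replicate 2, and Rps2 at 115 and 115 against 224 and 247 FPKM.

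**Figure D2:**
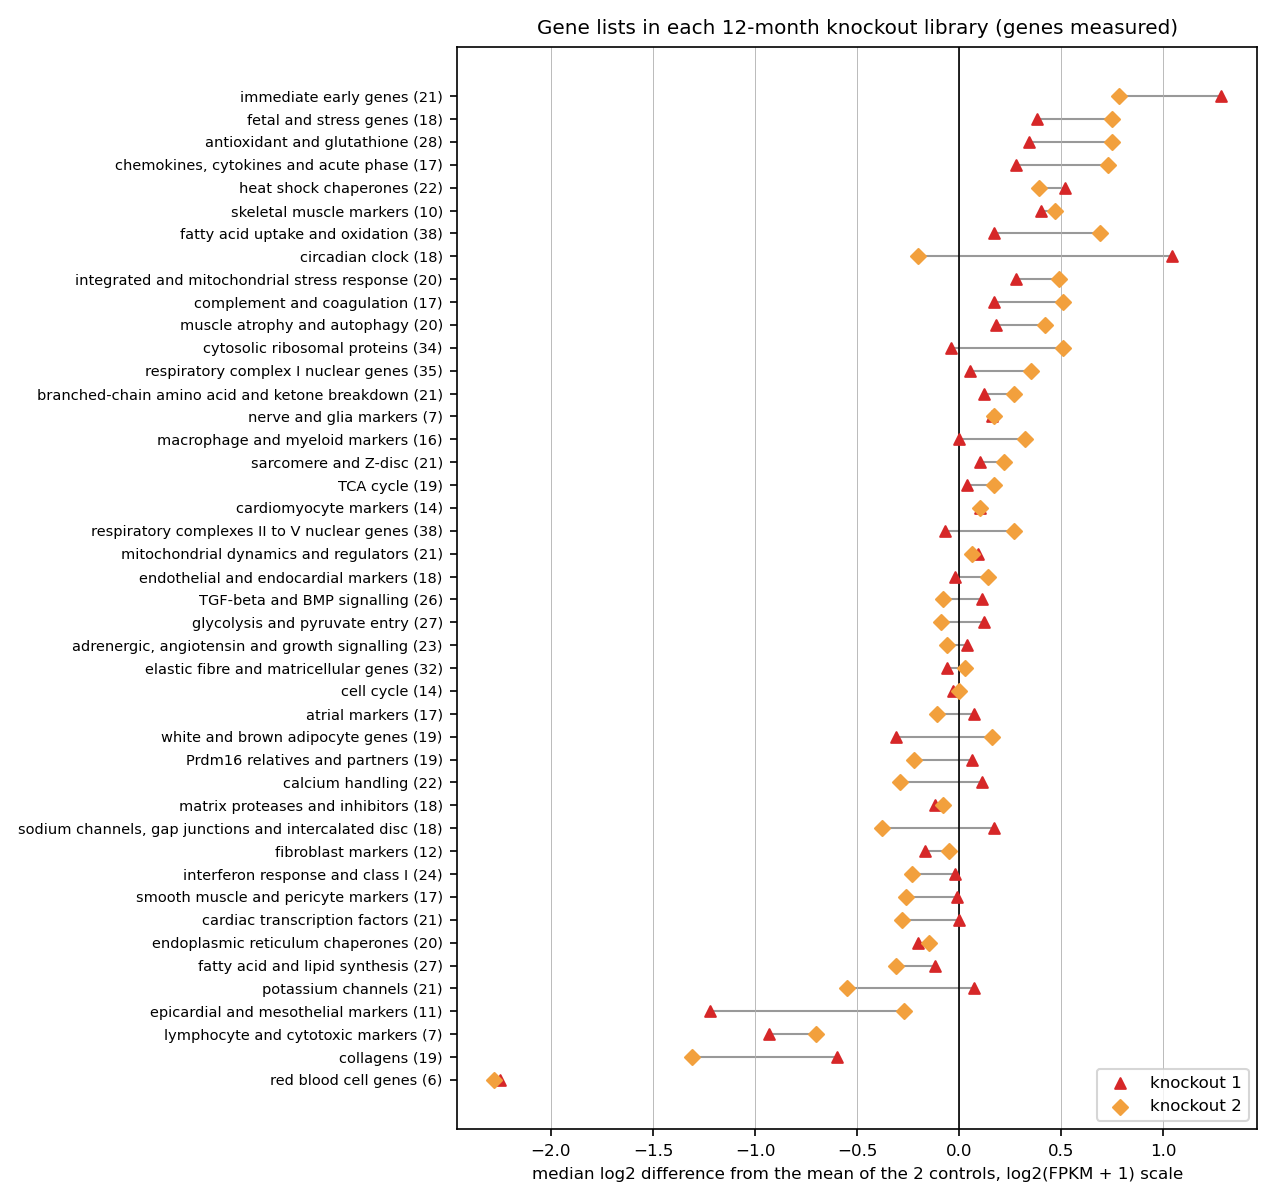
Median log2 difference of each gene list from the mean of the 2 controls, on the log2(FPKM + 1) scale, drawn separately for knockout replicate 1 (red triangles) and replicate 2 (orange diamonds), with the number of measured genes in brackets. Red blood cell genes lie at −2.25 and −2.28, collagens at −0.60 and −1.31 and immediate early genes at 1.28 and 0.78, while the circadian clock list lies at 1.04 and −0.20; complexes II to V lie at −0.07 and 0.27 and ribosomal proteins at −0.04 and 0.51.

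The transcription factors Atf3 and Cebpd rose, as did Depp1. Atf3, a stress-induced factor of the ATF family, stood at 2.32 and 1.83 FPKM in control hearts and 12.5 and 15.6 FPKM in knockout hearts (log2 difference 2.29, SE 0.17; limma adjusted p = 0.0449, Benjamini-Hochberg). Cebpd, a factor of the acute phase and of early fat cell formation, stood at 3.501 and 4.198 FPKM in control hearts and 14.5 and 16.5 FPKM in knockout hearts (log2 difference 1.77, SE 0.14; limma adjusted p = 0.0498, Benjamini-Hochberg). Both were low in the controls. Depp1, a target of FOXO factors linked to autophagy, stood at 10.1 and 9.81 FPKM in control hearts and 56.9 and 55.7 FPKM in knockout hearts (log2 difference 2.39, SE 0.10; limma adjusted p = 0.0125, Benjamini-Hochberg). 

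Of 21 measured immediate early genes 20 were higher and 1 lower, with a median of 1.02 (0.73 after TPM scaling), and 17 were higher without overlap, against 27.6% of all genes. Atf3 was the only one called. Nr4a1, an orphan nuclear receptor induced rapidly by many stimuli, stood at 2.09 and 2.36 FPKM in control hearts and 45.7 and 14.8 FPKM in knockout hearts (log2 difference 3.07, SE 0.56; limma adjusted p = 0.196, Benjamini-Hochberg). The AP-1 partner Junb stood at 5.45 and 5.21 against 10.3 and 10.4 FPKM and Klf4 at 10.99 and 10.2 against 17.98 and 18.8 FPKM. Nr4a3 stood at 0.317 and 0.244 against 5.003 and 2.73 FPKM. It reached the level of the rule through the knockouts only, so its being counted rests on them. In knockout replicate 1 all 21 lay above both controls and in replicate 2 17 did, against 5828 and 5597 of all 12527 genes. Genes of the integrated and mitochondrial stress response had 16 of 20 higher and 4 lower (median 0.38, 0.14 after TPM scaling), none called. Its lowest p was that of Cebpb, a relative of Cebpd and a partner of Prdm16 in brown fat, at 3.399 and 3.82 against 22.03 and 14.04 FPKM. Ddit3, the pro-apoptotic factor CHOP, stood at 13.8 and 14.4 against 27.7 and 22.4 FPKM and Atf4, the central factor of the response, at 44.4 and 44.8 against 61.2 and 74.6 FPKM.

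Heat shock chaperones were higher in 20 of 22 and lower in 2 (median 0.44, 0.12 after TPM scaling), none called. The cytosolic Hsp90aa1 stood at 103 and 109.5 against 190.2 and 175 FPKM and its co-chaperone Bag3, which clears misfolded sarcomere proteins, at 72.2 and 70.7 against 119 and 114 FPKM. The chaperones of the endoplasmic reticulum went the other way, with 6 of 20 higher and 14 lower (median −0.12). BiP (Hspa5), the main one, stood at 319 and 320.5 against 198 and 214 FPKM, while the membrane protein Herpud1 was higher, at 79.02 and 82.9 against 218 and 145 FPKM.

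Antioxidant and glutathione genes were higher in 27 of 28 and lower in 1 (median 0.57, 0.25 after TPM scaling), and 24 were higher without overlap, against 27.6% of all genes; none was called. Nfe2l2, the factor NRF2 that drives many of them, stood at 26.2 and 26.7 against 43.5 and 38.9 FPKM and the glutathione transferase Gsta3 at 4.87 and 5.74 against 10.2 and 14.3 FPKM. Gpx3, a secreted glutathione peroxidase, was among the 3 highest of the reported genes in each library. It stood at 12984 and 15718 FPKM in control hearts and 31073 and 66897 FPKM in knockout hearts. The metal-binding Mt1 stood at 101 and 101 against 218 and 450.1 FPKM and Mt2 at 9.18 and 11.2 against 37.2 and 140.3 FPKM. In each of these last 3 genes knockout replicate 2 was far higher than replicate 1. Fkbp5, a glucocorticoid-induced chaperone partner, stood at 2.61 and 2.49 FPKM in control hearts and 16.3 and 27.4 FPKM in knockout hearts, a difference of 2.64 (SE 0.27; limma adjusted p = 0.0889, Benjamini-Hochberg) that missed the threshold.

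The globins Hba-a1, Hba-a2, Hbb-bs and Hbb-bt fell, and their promoters are shown because all 4 hold the GATA site GATAAG (both strands searched) in the same kind of window as above. Capitals mark it and, near the end of the Hbb-bs window, the match TGACTCA to the AP-1 site TGANTCA.
Hba-a1, chr11:32283422-32283721, plus strand: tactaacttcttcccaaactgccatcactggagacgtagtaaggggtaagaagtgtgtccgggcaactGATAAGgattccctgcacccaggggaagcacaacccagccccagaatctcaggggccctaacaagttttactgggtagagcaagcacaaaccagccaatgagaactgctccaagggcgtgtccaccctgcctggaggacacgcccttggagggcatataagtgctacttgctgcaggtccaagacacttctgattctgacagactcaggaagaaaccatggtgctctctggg
Hba-a2, chr11:32296242-32296541, plus strand: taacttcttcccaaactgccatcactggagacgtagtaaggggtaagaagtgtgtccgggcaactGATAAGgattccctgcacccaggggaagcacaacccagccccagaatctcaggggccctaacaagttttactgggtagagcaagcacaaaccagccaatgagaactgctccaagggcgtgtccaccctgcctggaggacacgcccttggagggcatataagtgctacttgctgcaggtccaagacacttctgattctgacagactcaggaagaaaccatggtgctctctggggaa
Hbb-bs, chr7:103827879-103828178, minus strand: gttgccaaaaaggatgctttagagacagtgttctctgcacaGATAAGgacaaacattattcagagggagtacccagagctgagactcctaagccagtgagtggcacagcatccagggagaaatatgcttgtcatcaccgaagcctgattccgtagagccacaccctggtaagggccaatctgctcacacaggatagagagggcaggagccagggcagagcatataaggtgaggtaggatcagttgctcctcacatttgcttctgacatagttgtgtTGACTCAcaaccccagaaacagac
Hbb-bt, chr7:103813874-103814173, minus strand: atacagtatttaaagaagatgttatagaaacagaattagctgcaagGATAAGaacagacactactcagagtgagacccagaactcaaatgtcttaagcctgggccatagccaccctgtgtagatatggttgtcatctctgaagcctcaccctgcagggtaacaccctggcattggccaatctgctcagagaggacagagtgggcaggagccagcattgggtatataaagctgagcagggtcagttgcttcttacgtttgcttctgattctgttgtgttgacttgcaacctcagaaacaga
The site begins 182 bases before the start in Hba-a1, 185 in Hba-a2, 209 in Hbb-bs and 204 in Hbb-bt, each time on the strand of the gene. It was in 4 of the 10 promoters of called falls (40.0%), in 1 of 11 of called rises (that of Atf3) and in 6.3% of all. The windows of Hba-a1 and Hba-a2 hold the same sequence with a small shift, so the 4 matches are not independent. GATA factors are the master regulators of red cell genes, and the match again describes letters only.

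The alpha globin Hba-a1 stood at 2660.0 and 2706 FPKM in control hearts and 549 and 538 FPKM in knockout hearts and Hba-a2 at 1768 and 1861 against 359 and 338 FPKM. The beta globins stood at 5598 and 5340.1 against 890.1 and 1150.3 FPKM (Hbb-bs) and 664 and 647 against 141 and 113 FPKM (Hbb-bt). The log2 differences were −2.30, −2.38, −2.43 and −2.37, with limma Benjamini-Hochberg adjusted p values of 0.0138, 0.0138, 0.0410 and 0.0323. Reads can be shared within the alpha pair and within the beta pair, so the split between near-identical copies is uncertain. Bpgm, an enzyme of red cell glycolysis, was lower without passing, at 64.4 and 64.8 against 29.4 and 27.2 FPKM. Of the 6 measured genes of the list all were lower (median −2.34) and 5 were called. The anion exchanger gene Slc4a1, made during red cell formation, was low in all libraries, at 0.0531 to 1.12 FPKM. The part of blood content in the other results was not tested. Genes of iron uptake and control also stood lower without passing: the transferrin receptor Tfrc (59.3 and 60.7 FPKM in control hearts and 15.1 and 2.71 FPKM in knockout hearts) and hepcidin (Hamp; 25.95 and 25.1 FPKM in control hearts and 1.72 and 7.67 FPKM in knockout hearts). In Tfrc knockout replicate 2 was the lower and in Hamp replicate 1.

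Complement and immune genes were mixed. C7 (chromosome 15, 4988762 to 5063740, minus strand), a component of the membrane attack complex, rose, with 1.22 and 1.22 FPKM in control hearts and 13.9 and 12.6 FPKM in knockout hearts (log2 difference 2.68, SE 0.12; limma adjusted p = 0.0132, Benjamini-Hochberg). In the complement and coagulation list 14 of 17 were higher and 3 lower (median 0.34, 0.02 after TPM scaling), with C7 alone past the test. C4b stood at 5.68 and 4.699 against 13.7 and 21.3 FPKM, while adipsin was lower, as given with the fat cell genes. Chemokines, cytokines and acute phase genes had 14 of 17 higher and 3 lower (median 0.52), none called. The eosinophil chemokine Ccl11 stood at 0.579 and 0.81002 against 3.17 and 3.49 FPKM, Cxcl14 at 3.19 and 3.26 against 8.72 and 17.98 FPKM and the acute phase inhibitor Serpina3n at 0.725 and 0.951 against 7.26 and 31.7 FPKM. Macrophage and myeloid markers had 8 of 16 higher and 8 lower (median −0.06), with the receptor Cx3cr1 at 5.13 and 5.14 against 1.92 and 1.16 FPKM and Cd68 at 6.698 and 6.28 against 8.46 and 10.5 FPKM. Of 7 measured lymphocyte markers 2 were higher and 5 lower (median −0.81). B cell genes made up the lower ones with the lowest p, as Ighm (15.1 and 16.7 against 6.73 and 7.38 FPKM) and Cd79b (2.83 and 2.84 against 0.807 and 0.984 FPKM) show. Igha, the constant region of immunoglobulin A, was far higher in knockout replicate 2 than in the other libraries, at 0.227 and 0.469 against 3.41 and 61.8 FPKM. Interferon response and class I genes had 10 of 24 higher and 14 lower (median −0.17), none called. Ube2l6, the enzyme that conjugates the interferon-induced modifier ISG15, nonetheless fell, with 52.8 and 48.1 FPKM in control hearts and 18.6 and 18.3 FPKM in knockout hearts (log2 difference −1.41, SE 0.11; limma adjusted p = 0.0498, Benjamini-Hochberg), and Ifi205, of the interferon-induced p200 family, stood at 0.336 and 0.577 against 7.32 and 13.2 FPKM.

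Of 13 marker genes of airway, thymus and liver 2 were measured, both higher without overlap, a state shared by 27.6% of all genes. Ttr reached the level of the rule through knockout replicate 2 only, so its being counted rests on that value. Tg stood at 1.104 and 1.09 against 3.16 and 2.47 FPKM and Ttr at 0.334 and 0.191 against 0.375 and 3.79 FPKM, with the high value of Ttr in knockout replicate 2; the summed level of the pair was 1.44 and 1.28 FPKM in controls and 3.54 and 6.27 FPKM in knockouts, and its part in other results was not tested. Scgb1a1, Scgb3a2, Sftpc, Sftpb, Bpifa1 and Alb, of airway, lung and liver, were listed at 0 in all 4 libraries. The fast skeletal myosins Myh1, Myh2 and Myh4 were at or under 0.0221 FPKM, although Tnni2, a fast troponin, stood at 6.16 and 4.42 against 0.9197 and 1.51 FPKM; of 10 measured skeletal muscle markers 7 were higher and 3 lower (median 0.63), with Acta1 called. Endothelial and endocardial markers had 8 of 18 higher and 10 lower (median −0.02), with Ly6c1 at 81.03 and 83.95 against 153 and 179.7 FPKM and the apelin receptor Aplnr at 26.6 and 26.4 FPKM in control hearts and 10.2 and 4.35 FPKM in knockout hearts. Atrial markers had 8 of 17 higher and 9 lower (median −0.03). Sarcolipin (Sln) stood at 480.4 and 447 FPKM in control hearts and 48.02 and 387 FPKM in knockout hearts and the atrial light chain Myl7 at 1275 and 1244 FPKM in control hearts and 153 and 749 FPKM in knockout hearts. Both were lowest in knockout replicate 1, as was Bmp10, while the atrial Nppa was higher in both knockouts; the part of atrial tissue in these values was not tested.

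Among regulators, cardiac transcription factors had 8 of 21 higher and 13 lower (median −0.15), with Tbx5 at 15.5 and 16.05 against 26.3 and 23.7 FPKM and the ventricular Irx4 at 15.5 and 15.4 against 11.5 and 7.97 FPKM. Relatives and partners of Prdm16 had 7 of 19 higher and 12 lower (median −0.07), with Prdm11 at 3.64 and 3.098 against 1.93 and 1.58 FPKM and the mediator subunit Med1 at 14.5 and 11.2 against 7.901 and 8.204 FPKM. Adrenergic, angiotensin and growth signalling genes had 11 of 23 higher and 12 lower (median −0.00). Igf2, a fetal growth factor, stood at 52.3 and 55.8 FPKM in control hearts and 13.04 and 17.03 FPKM in knockout hearts (log2 difference −1.79, SE 0.16; limma adjusted p = 0.0692, Benjamini-Hochberg), and angiotensin-converting enzyme (Ace) at 9.798 and 10.6 against 27.4 and 20.1 FPKM. No member of these 3 lists passed. Among called genes outside these themes, Prune2, a BCH-domain protein, rose at 4.78 and 4.75 against 16.8 and 15.1 FPKM (log2 difference 1.55, SE 0.12; limma adjusted p = 0.0467, Benjamini-Hochberg), and Klhdc8a, a kelch-repeat protein, fell at 14.3 and 14.9 against 5.02 and 4.62 FPKM (log2 difference −1.43, SE 0.11; limma adjusted p = 0.0498, Benjamini-Hochberg). The processed pseudogene 7530428D23Rik rose from 0 and 0.0923 FPKM to 17.5 and 24.2 FPKM. Further genes of large difference that missed the test were the prostaglandin D synthase Ptgds (38.7 and 39.2 against 148 and 705 FPKM), the methyltransferase Inmt (2.41 and 2.65 against 16.02 and 40.7 FPKM), the lysophospholipase Gdpd3 (1.12 and 0.311 against 1.82 and 43.5 FPKM) and the amino acid transporter Slc7a7 (9.81 and 11.5 against 2.14 and 2.63 FPKM). Ptgds, Inmt and Gdpd3 were highest in knockout replicate 2.

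The knockouts differed from each other in whole groups of genes. In 3295 genes (26.3%) one knockout lay above both controls and the other below both. In 350 genes replicate 1 was at least 1 log2 unit above replicate 2, and in 321 it was the reverse. By their medians in the 2 knockouts the circadian clock genes were one such group. Still, 6 of the 18 measured were higher without overlap and 4 lower, against 27.6% and 23.1% of all genes. Of the genes named next, Dbp, Per2 and Per3 were chosen after their values were seen. Arntl (BMAL1), the activator of the circadian clock, stood at 12.6 and 12.8 FPKM in control hearts and 0.351 and 10.6 FPKM in knockout hearts. Dbp, an output gene that BMAL1 drives, stood at 18.3 and 16.9 FPKM in control hearts and 101 and 8.08 FPKM in knockout hearts, and the repressor Per2 at 0.341 and 0.342 FPKM in control hearts and 8.42 and 0.6798 FPKM in knockout hearts. Knockout replicate 1 was thus low in Arntl and high in Dbp and Per2, while replicate 2 lay closer to the controls in all 3. Per3 stood at 2.39 and 2.13 against 14.02 and 0.596 FPKM, in the same order as Dbp. Of 18 measured clock genes 13 were higher and 5 lower on average (median 0.55), but the median was 1.04 in replicate 1 and −0.20 in replicate 2. The labels do not state the time of day of collection.

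**Figure D3:**
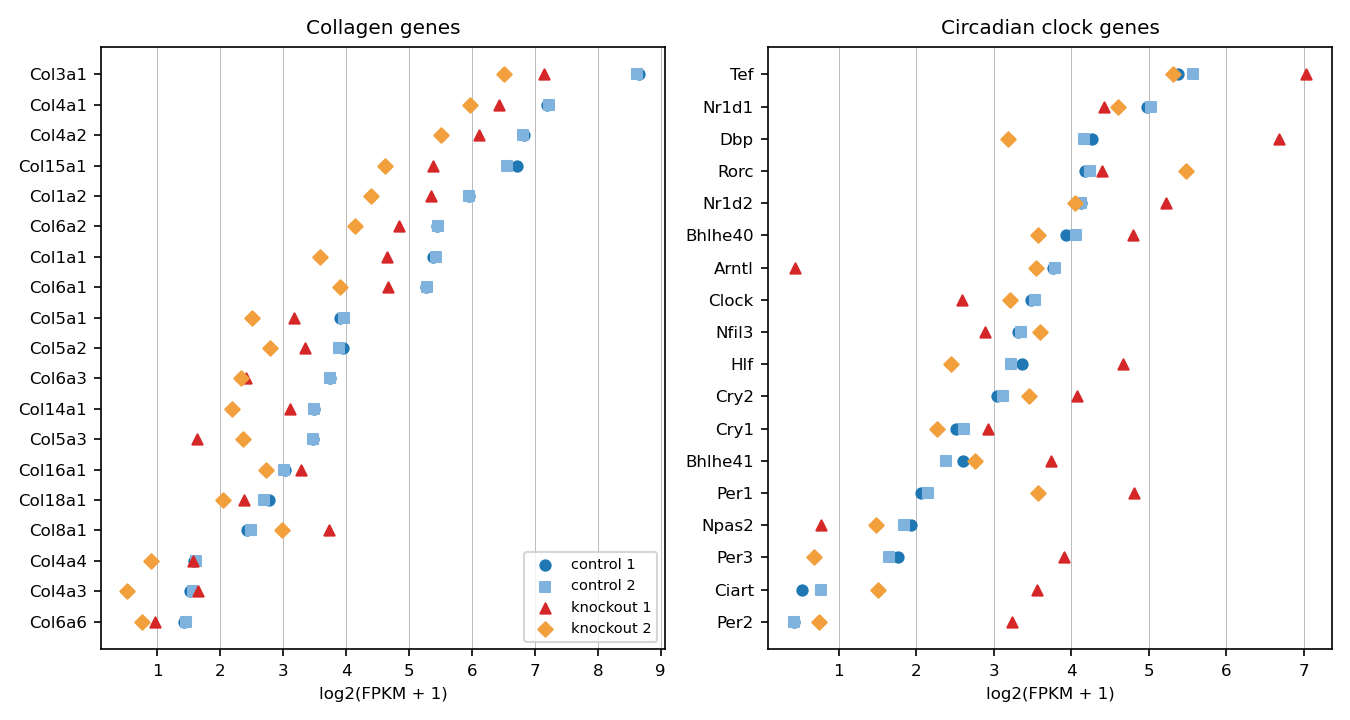
Levels of the measured collagens (left) and circadian clock genes (right) in each 12-month library, as log2(FPKM + 1), ordered by the mean of the controls (blue circles and squares). Both knockouts (red triangles for replicate 1, orange diamonds for replicate 2) lie left of the controls in 16 of 19 collagens, whereas in the clock panel replicate 1 stands farthest from the other 3 libraries for Arntl, Dbp, Per2 and Per3.

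The 12-month differences were set beside those of the same genes at 3 months, in a fit over 10 libraries that tests the difference between the ages. Of the 30 called genes 26 were tested at both ages, and 22 of them passed that test. Over all 11170 genes of the rule in that fit 153 (1.37%) passed. The called genes were picked for their 12-month difference, which is also a term of that test. The high share among them is thus partly set by the choice and is no separate evidence of a difference between the ages. The ages differ in library preparation and in the sex-linked genes of the controls, so age, preparation and sex-linked expression cannot be told apart in the test of the ages. At 3 months 88 of 11725 genes (0.751%) were called on their own. Kcnj14, Ankrd1 and Cpxm2 were called at both ages in the same direction. Kcnj14 was also higher in the knockouts at 3 months, with 0.362 ± 0.149 FPKM in the controls and 21.1 ± 0.974 FPKM in the knockouts of 3 months (SD, n = 3 each), and the difference of the ages on the log2 scale was −1.79 (SE 0.18; limma, Benjamini-Hochberg adjusted p = 0.000988). Ankrd1 stood at 609.9 ± 75.98 FPKM in the controls and 1073 ± 40.9 FPKM in the knockouts of 3 months and Cpxm2 at 2.38 ± 0.355 FPKM in the controls and 5.94 ± 0.953 FPKM in the knockouts of 3 months, and both differed more at 12 months.

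The 4 globins were called at both ages in opposite directions. Hba-a1 stood at 355 ± 58.5 FPKM in the controls and 928 ± 222 FPKM in the knockouts of 3 months (SD, n = 3 each), a difference of 1.37, against −2.30 at 12 months, and the test of the ages gave −3.67 (SE 0.29; limma, Benjamini-Hochberg adjusted p = 0.000214). Scd1, Eln, C7 and Depp1 had small differences at 3 months, none past the test. Scd1 stood at 4.12 ± 3.14 FPKM in the controls and 4.52 ± 2.06 FPKM in the knockouts of 3 months and Eln at 14.3 ± 4.78 FPKM in the controls and 15.5 ± 3.36 FPKM in the knockouts of 3 months. C7 stood at 2.12 ± 0.251 FPKM in the controls and 2.41 ± 0.6796 FPKM in the knockouts of 3 months, and Depp1 at 10.2 ± 1.28 FPKM in the controls and 13.3 ± 0.6796 FPKM in the knockouts of 3 months. The tests of the ages gave −3.51 (SE 0.58; limma, Benjamini-Hochberg adjusted p = 0.0168) for Scd1, −2.81 (SE 0.34; limma, Benjamini-Hochberg adjusted p = 0.00261) for Eln and 2.57 (SE 0.23; limma, Benjamini-Hochberg adjusted p = 0.000432) for C7. Car3, Cilp2, Atf3 and Cebpd did not pass the test of the ages, with limma Benjamini-Hochberg adjusted p of 0.134, 0.198, 0.0702 and 0.190. Acta1, Ucp1, Plin1 and 7530428D23Rik had no test of the ages.

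Among the lists, all 6 red blood cell genes passed the test of the ages as lower at 12 months, with medians of −2.34 at 12 months and 1.25 at 3 months. Of 16 collagens in that fit Col3a1, Col15a1 and Col6a3 passed, with list medians of −1.01 and 0.01. Of 19 immediate early genes Klf4, Nr4a1 and Btg2 passed as higher at 12 months (medians 0.96 and 0.12). Of 38 fatty acid oxidation genes Ucp3 passed (medians 0.42 and 0.01), and of 21 ketone and branched-chain genes Bdh1 and Mccc1 did. Complex I genes had none that passed of 35, with medians of 0.19 and 0.39, and genes of complexes II to V none of 37.

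**Figure D4:**
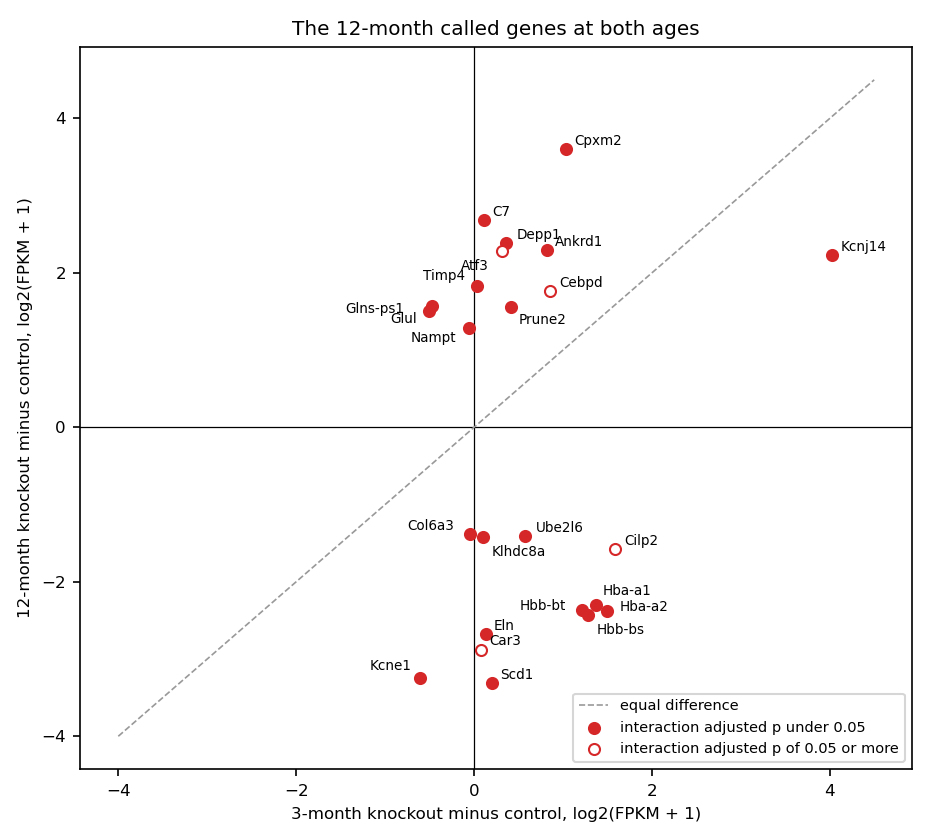
Difference between knockout and control at 3 months (horizontal axis) and at 12 months (vertical axis), both on the log2(FPKM + 1) scale, for 24 of the 26 called genes tested at both ages. Filled points mark the 20 genes whose ages differed (adjusted p under 0.05) and open points the others, and the dashed line marks equal differences. The 4 globins lie at the lower right, Kcnj14 lies below the line on the right, and most other points lie near 0 on the horizontal axis.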

How the data were processed

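RNA of mouse hearts was sequenced. The authors deposited FPKM values, 1 table per age, with 1 column per library. Per the submitters' processing notes the tools include Cufflinks 2.1.1, STAR 2.5.1b, TopHat2 2.1.0 and FastQC, in no stated role or order. Per the labels' protocols the 12-month libraries were made at the sequencing centre and those of 3 months with a strand-specific poly(A) kit. The 12-month table is named as free of outliers, with no criterion given. No counts were used.

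Identifiers were matched to GENCODE M21 (GRCm38), which held 46484 of 46977 genes. Promoter sequences came from RefSeq (GRCm38.p6). Genes averaging at least 1 FPKM were fitted together with limma 3.58.1 in R 4.3.3 on log2(FPKM + 1), with a pseudocount of 1, an intensity trend and Benjamini-Hochberg adjustment over all 13179 genes. The residual degrees of freedom were 2. The scale understates changes of low genes. In simulated data of 13179 genes, changed only above about 5 FPKM, 1.5-fold changes were never recovered (0%), 2-fold changes in 32%, 4-fold in 98% and 8-fold in 100%, and 8 unchanged genes were called. The simulation gave controls and knockouts the same spread. In the data the robust SD of the log2 ratio was 0.112 between the controls and 0.417 between the knockouts, so these shares need not hold there.

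Depth was read from the low values, of which 86.0% to 87.6% per library lay within 0.05 of a whole number of reads. Chi-square per gene averaged 1.92 between the controls and 45.85 between the knockouts at that depth, with medians of 0.57 and 4.1. No library was treated as a copy of another. Whether the controls came from separate animals was not tested, and the calls were lost when either control was left out. The ages were compared by an interaction contrast over 11580 genes of 10 libraries, and levels were not compared across ages. Members, lists and tests were chosen with earlier results of these data known. Named genes are Prdm16, every called gene, the 15 largest uncalled differences each way with groups apart and a higher group of at least 5 FPKM, and members of lowest p or highest level of each list; Col8a1, Bpgm, Dbp, Per2, Per3, Btg2, Lep and the marker genes listed at or near 0 were chosen after their values were seen. A few genes that the rule names are not reported here, and counts of called genes and of list members include them, except those drawn in figures. The alternatives were other pseudocounts, filters, scalings and moderation, a replicate block, leaving out each library and, added after the data were seen, a spread pooled over both ages.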

Additional observations from a re-analysis of the deposited data

Results flagged for a closer look

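Each gene here was called at 12 months and had a knockout difference that departed from that at 3 months in a test of the ages (limma interaction over 10 libraries, Benjamini-Hochberg adjusted p under 0.05). The values are the 12-month minus the 3-month difference, on the log2(FPKM + 1) scale. Since the 12-month difference by which the genes were called is a term of this test, their passing is partly set by that choice. Age, library preparation and sex-linked expression cannot be told apart.

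Among fat, matrix and channel genes the value was −3.51 for Scd1, −2.81 for Eln, −1.33 for Col6a3 and −2.64 for Kcne1. For Kcnj14 it was −1.79, since the gene was higher at both ages and more so at 3 months. Among red blood cell genes it was −3.87 for Hba-a2, −3.67 for Hba-a1, −3.71 for Hbb-bs and −3.59 for Hbb-bt. It was −1.98 for Ube2l6 and −1.53 for Klhdc8a.

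Positive values were 2.57 for C7, 2.56 for Cpxm2, 2.04 for Glul, 2.03 for Depp1 and 2.01 for the pseudogene Glns-ps1. They were 1.79 for Timp4, 1.47 for Ankrd1, 1.35 for Nampt and 1.14 for Prune2.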

How the results depend on the processing

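The count of 30 called genes stayed within 1.5 times with a pseudocount of 0.1 FPKM (36), at a mean of at least 5 FPKM (29), after TPM or median-of-ratios scaling (26 each) and with no trend (24). It was 19 with a pseudocount of 5 FPKM, 4 with no filter, 17 with robust moderation, 9 when the reported genes alone were fitted and 423 with a spread pooled over both ages, which was added after the data were seen. Leaving out 1 library gave 0 to 4028 calls, with the spread then taken from the pair left in the other group. With the replicate number as a block it was 15, of which 11 were among the 30; the deviations of same-numbered libraries correlated at −0.006, so the numbers do not pair the libraries. The cause of the other moves was not tested. Over all alternatives no called gene changed direction, and the Prdm16 difference ran from −0.74 to −0.28 without passing. Of 26 genes 21 differed between the ages after median-of-ratios scaling and 22 with a pseudocount of 0.1 FPKM. With 2 libraries a group, 2-fold changes were mostly missed in simulated data with the same spread in both groups, and genes near 1 FPKM are the least certain.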
